A study of Mus musculus with 4 samples.

Results

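Solute carriers are the membrane proteins that move amino acids, sugars, ions, metals, vitamins and metabolites into and out of cells and their organelles. The genes described here have mouse symbols that start with Slc, a family number and a letter, and were chosen by their raw counts, at least 10 in at least 2 of the 4 libraries. One transcript was kept per gene, the one with the highest mean count. The choice of genes left out Slc2a1, Slc16a3, Slc7a2, Slc40a1, Slc11a1 and Slc11a2 by name. Of the 379 Slc symbols in the data, 224 met these terms, 6 were left out by name, and 149 had too few counts, 79 of them with 0 in every library. The 224 genes belong to 44 families, and 6 of them carry a carrier's name without being carriers themselves.

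The study used RAW 264.7, a mouse macrophage cell line, kept at 5.5 mmol/L glucose and used at passages 3 to 6. The empty vector group (2 libraries) stably carried the plasmid pcDNA 3.1(+) with no insert, and the Dnm3os group (2 libraries) stably carried Dnm3os, a long noncoding RNA that the series title describes as induced by diabetes. All 4 libraries were made from poly(A) RNA. The labels do not say whether the cells were clones or pools, nor whether a group's libraries stem from different cultures, so the p-values measure the spread between these libraries, which may be technical.

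Summed counts over 1 transcript per gene ran from 29416272 to 39769640 per library, so precision was lowest for genes of few counts. Dnm3os had 0 and 0 counts in the empty vector libraries and 208 and 260 in the Dnm3os libraries. Of 12 macrophage markers, 11 were at 1 CPM (counts scaled to library size) or more, and Mertk was not. Their summed level was 10246 to 10410 CPM in the empty vector and 11162 to 11646 CPM in the Dnm3os libraries, where Csf1r, Itgam, Lyz2 and Fcgr1 rose and Adgre1 and Cd68 fell by edgeR. Lyz2 alone made up most of the sum, at a mean of 7015 CPM in the empty vector and 7808 CPM in the Dnm3os libraries. Ptprc, Spi1, Cd14, Tyrobp and Fcer1g were not called. Of 38 markers of T cells, B cells, granulocytes and mast cells, fibroblasts, epithelium, endothelium and erythroid cells, 3 (Lck, S100a8 and Vwf) were at 1 CPM or more and 17 were at 0 in every library, among them Cd3e, Ms4a1, Ly6g, Col1a2, Epcam and Hbb-b1. By edgeR the endothelial marker Vwf was lower (53, 64, 22 and 29 counts) and Kdr, another, higher (8, 11, 21 and 22 counts), in the order empty vector 1 and 2, Dnm3os 1 and 2. The part of the macrophage marker shift in the results on carriers was not tested. In such bulk libraries, fewer cells of a type and less RNA per cell cannot be told apart.

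Carriers of a family often share a substrate but sit in different membranes. Some amino acid carriers of family 7 are light chains that reach the cell surface only when bound to a heavy chain, Slc3a2. Macrophages depend on carriers to feed their metabolism, to empty the lysosome of the products of digested cells and microbes, and to move protons and metal ions across the membrane of the phagosome.

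The most abundant solute carriers served mitochondria and amino acid supply. Mean levels over the 4 libraries ran from 0.245 to 764 CPM, with a median of 22.1 CPM. Of the 224 genes, 25 were under 1 CPM, 46 from 1 to 10, 122 from 10 to 100 and 31 at 100 CPM or more, and the 10 most abundant held 33.5% of all carrier counts. Per kilobase of transcript, the scale on which genes can be compared, the highest level was that of Slc25a5, an ADP/ATP exchanger of the inner mitochondrial membrane, at 616 CPM per kilobase. The mitochondrial phosphate carrier Slc25a3 followed at 274, and the glutamine carrier Slc1a5 at 138 CPM per kilobase. Slc25a39, a mitochondrial glutathione carrier, was at 126 and the heavy chain Slc3a2 at 125.5 CPM per kilobase. The neutral amino acid carrier Slc38a2 was at 104 CPM per kilobase. Slc25a4 and Slc25a5 are similar paralogs, so their reads are uncertain.

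In the libraries with Dnm3os, 20 of the 222 carriers that could be tested rose, 12 fell and 190 did not pass (two-sided quasi-likelihood test in edgeR, with p adjusted by Benjamini-Hochberg over all 13172 genes tested and a threshold of 0.05). The called share was 14.4%, where 12.3% of all genes tested were called. In the higher direction it was 9.01% against 6.51% of all genes, and in the lower direction 5.41% against 5.75%. The median log2 fold change of the carriers tested was 0.02, and that of all genes tested 0.00. The groups did not overlap for 120 carriers (54.1%), and for 51.2% of all genes tested. Among carriers at 10 CPM or more, 17% were called, beside 13.6% of all genes at that level. So the carriers as a set lay near the background, and single genes are described next.

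Most of the called differences were small. Of the 32 called genes 24 differed by less than 1.5-fold, and 8 by 1.5-fold or more, a size at which 2.99% of all genes tested were called. Slc22a8 and Slc6a2, at 7 to 11 counts per library, could not be tested. The carriers just inside the count threshold, given here as a description, included the urea carrier Slc14a2 with 7 and 4 counts against 14 and 14 (empty vector against Dnm3os). Slc22a17, with 4 and 2 against 19 and 13 counts, also entered only through the Dnm3os libraries, and Slc6a2, with 10 and 11 against 7 and 8 counts, only through the empty vector libraries. Just outside it lay Slc13a3 (11, 7, 2 and 2 counts), Slc16a9 (9, 12, 6 and 2), Slc2a4 (9, 10, 6 and 8) and Slc52a3 (9, 8, 5 and 10), each in the order empty vector 1 and 2, Dnm3os 1 and 2. Among the 214 carriers at 10 or more counts in every library, 18 rose and 12 fell.

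**Figure D1:**
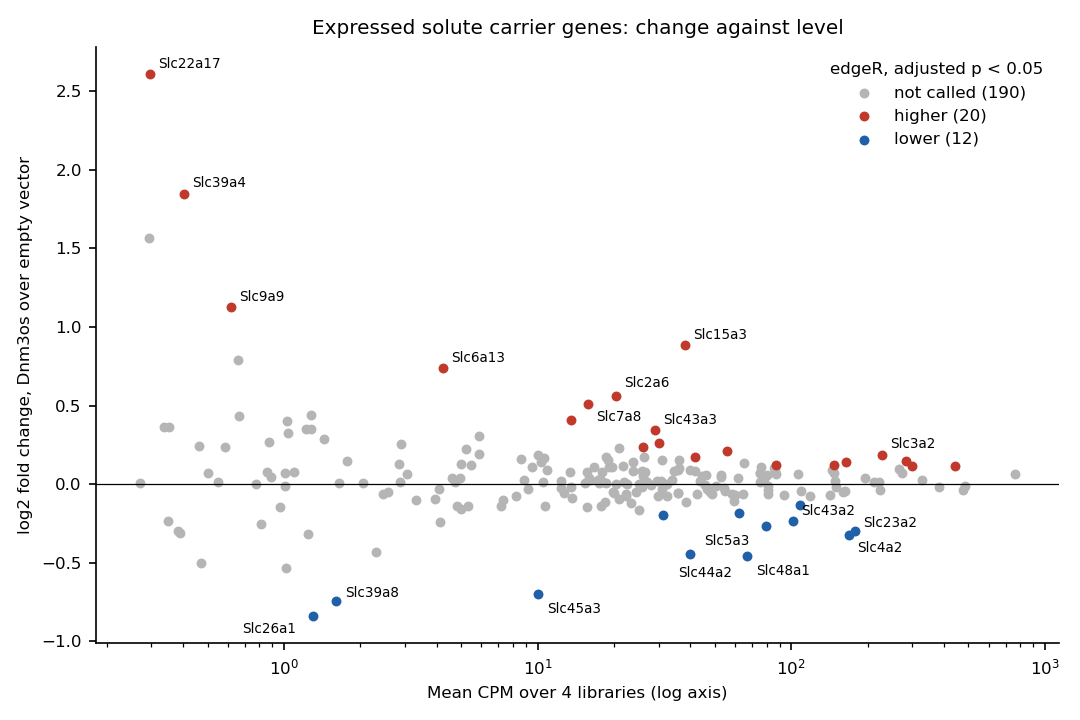
Log2 fold change of Dnm3os over empty vector for the 222 tested solute carrier genes (vertical axis) against their mean CPM over 4 libraries (horizontal, log axis), coloured by call. Of the 20 genes called higher and 12 called lower, 3, all higher, lie under 1 CPM and 3 from 1 to 10 CPM. Another 16 lie from 10 to 100 CPM, and 10 at 100 CPM or more. The points highest on the vertical axis are at under 1 CPM, among them Slc22a17, which met the count threshold only through the Dnm3os libraries.

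Of the 32 called genes, 13 were called in all 14 other fits run (other scalings, filters and tools, a replicate block, isoforms summed, and each library left out in turn): 6 that rose and 7 that fell. The number of genes called depended on single libraries: 11 rose and 8 fell without Dnm3os library 1, and likewise 11 and 8 without Dnm3os library 2, while DESeq2 called 8 higher and 7 lower. Over all genes tested, 7.08% were called without Dnm3os library 1, 6.44% without Dnm3os library 2, 10.9% and 10.8% without empty vector library 1 and 2, 5.02% by DESeq2 and 10.1% by limma-voom. Of the 32 genes DESeq2 also called 15, which are those 13 with Slc38a1 and Slc25a3, and limma-voom called 28, without Slc7a5, Slc26a1, Slc39a6 and Slc39a8. With isoforms summed, the calls of Slc7a5, Slc9a9, Slc25a33, Slc30a5 and Slc39a6 were lost. In all of these fits each called carrier kept its direction, where it could be tested. The groups overlapped for 0 of the 32 called carriers. The separation of groups described below for single called carriers is therefore no further support for their calls.

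**Figure D2:**
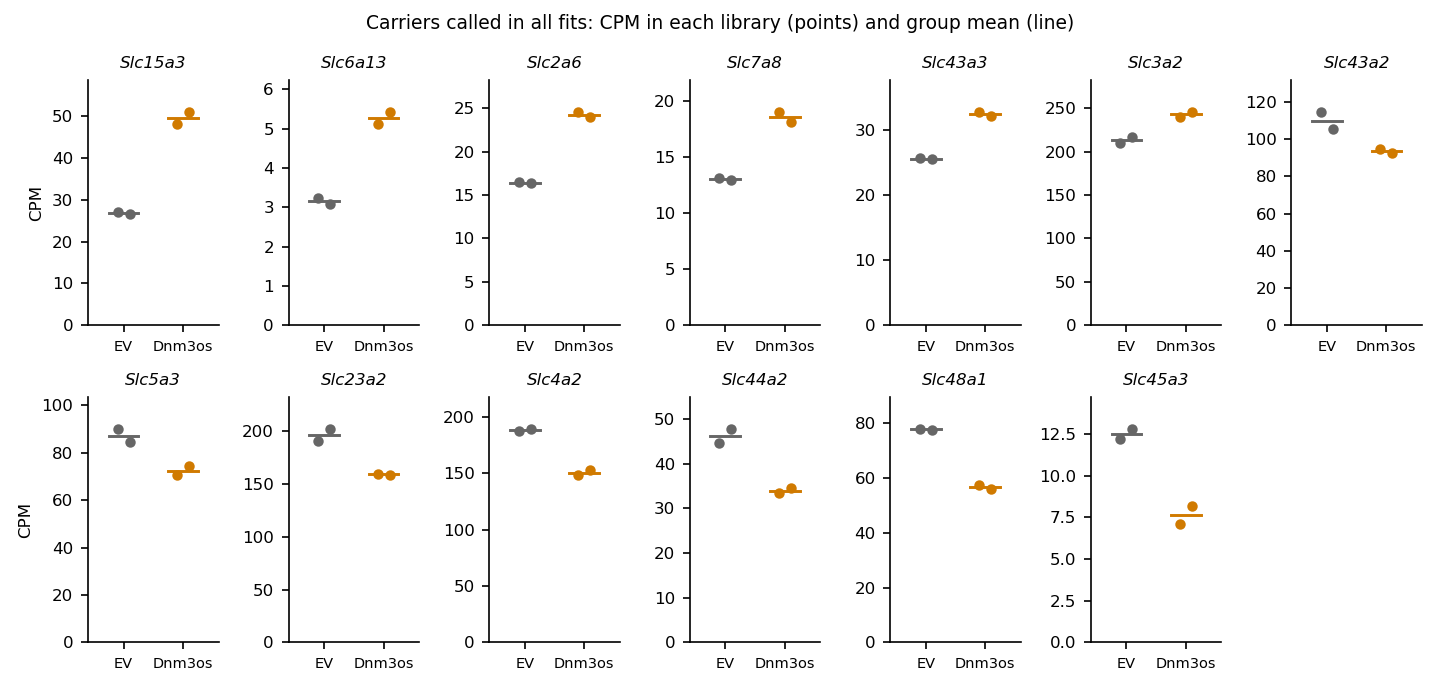
CPM in each library (points) and group mean (line) for the 13 carriers called in every fit; EV is empty vector, and each panel has its own vertical axis from 0. The 2 libraries of a group lie close together and the groups do not overlap in any panel, with rises from Slc15a3 down to Slc3a2 followed by falls from Slc43a2 to Slc45a3. The genes were chosen by their calls in these same libraries, so this separation is no further support. The groups did not overlap for 51.2% of all genes tested.

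Carriers of amino acids and peptides rose more often than they fell. Of 37 tested, 7 rose and 1 fell, and 29 did not pass, with a median log2 fold change of 0.08. That is 18.9% higher and 2.70% lower, against 6.51% and 5.75% of all genes tested. The 7 include Slc6a8, which carries creatine. DESeq2 called 5 higher and 1 lower, limma-voom 6 and 1, and summed isoforms gave 6 and 1. With no filter on low counts 9 were higher and 1 lower, and the number higher also moved when single libraries were left out. Slc15a3 carries histidine and small peptides out of the endosomes and lysosomes of immune cells. Its level was 27.2 and 26.5 CPM in the empty vector and 48.01 and 50.98 CPM in the Dnm3os libraries. Both Dnm3os libraries lay far above both controls, and the mean rose from 26.8 ± 0.489 to 49.5 ± 2.10 CPM (SD, n = 2 per group), a log2 fold change of 0.88 ± 0.06 (SE; adjusted p = 7.20e-11 by edgeR). Its close relative Slc15a4, which has the same substrates in the same compartment, was at 31.3 ± 2.38 and 31.1 ± 1.26 CPM, a log2 fold change of -0.01 ± 0.06. Slc15a3 shares 94 exon bases with Tmem132a on the opposite strand, which was itself higher (log2 fold change 1.53 ± 0.22) at a mean of 2.58 CPM. Whether the counting used strand is not given in the sources used here, so reads of the shared bases cannot be told apart.

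The plasma membrane exchangers of large neutral amino acids were among those that rose. Slc3a2, the CD98 heavy chain that binds several family 7 light chains, was at 209.5 and 217.5 CPM in the empty vector and 240.4 and 245.9 CPM in the Dnm3os libraries. The rise was 1.14-fold (log2 fold change 0.19 ± 0.03; adjusted p = 0.000246 by edgeR), small beside its level. Slc7a8, the light chain LAT2, was at 13.17 and 12.96 CPM against 19.03 and 18.17 CPM, again with no overlap, and rose 1.42-fold (0.51 ± 0.07; adjusted p = 3.67e-05 by edgeR).

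The promoter windows of these partner genes are shown because heavy and light chain rose together and each has a single annotated start in the RefSeq table. They run from 250 bases before to 50 bases after the start, on build GRCm38.p6, at chr19:8713848-8714147 (minus strand) for Slc3a2 and chr14:54781837-54782136 (minus strand) for Slc7a8. Capitals would mark a match to any of 4 motifs on either strand: kappa B (GGGA, then any 4 bases, then CC), the E-box CACGTG, the antioxidant response element core TGACNNNGC and the amino acid response element TGATGNAA. Neither window holds one.
Slc3a2: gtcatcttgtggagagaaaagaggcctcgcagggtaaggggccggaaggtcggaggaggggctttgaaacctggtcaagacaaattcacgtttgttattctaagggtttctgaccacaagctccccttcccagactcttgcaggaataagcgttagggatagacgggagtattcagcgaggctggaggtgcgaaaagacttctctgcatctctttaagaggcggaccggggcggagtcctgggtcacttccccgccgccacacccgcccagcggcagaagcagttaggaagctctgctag
Slc7a8: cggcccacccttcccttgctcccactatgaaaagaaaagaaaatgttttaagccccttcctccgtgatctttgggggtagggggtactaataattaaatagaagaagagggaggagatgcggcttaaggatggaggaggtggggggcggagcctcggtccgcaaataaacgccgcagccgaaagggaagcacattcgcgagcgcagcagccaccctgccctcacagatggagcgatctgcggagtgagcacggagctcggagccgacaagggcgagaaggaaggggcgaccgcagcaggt

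Other light chains moved less. Slc7a5, the light chain LAT1, was at 282.5 and 294.5 against 304.1 and 320.1 CPM and rose 1.08-fold (0.11 ± 0.03; adjusted p = 0.0279 by edgeR), a call lost without empty vector library 1, without Dnm3os library 2, with isoforms summed, and by DESeq2 and limma-voom. Slc7a11, the cystine and glutamate exchanger xCT, was at 252.7 and 263.3 against 271.3 and 280.9 CPM and did not pass (0.10 ± 0.03; adjusted p = 0.0531 by edgeR), but it was called without empty vector library 2, with total counts in place of TMM, the scaling used here, with no filter on low counts and with a crossed replicate block, an alternative chosen after the data were seen. Among the rest of family 7, none of which was called, the cationic carrier Slc7a1 was at 325 ± 14.2 and 330 ± 3.12 CPM, and Slc7a6 and Slc7a7 had log2 fold changes of 0.03 ± 0.04 and 0.02 ± 0.09. The glutamine carrier Slc1a5 was at 385 ± 2.61 and 381 ± 5.92 CPM, and Slc38a2 at 486 ± 14.5 and 482 ± 7.68 CPM. The groups overlapped for both.

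Slc6a13, which carries taurine and GABA, was at 3.23 and 3.09 CPM in the empty vector and 5.13 and 5.43 CPM in the Dnm3os libraries. It rose 1.67-fold (0.74 ± 0.13; adjusted p = 0.000423 by edgeR). The creatine carrier Slc6a8, at 50.9 and 52.6 against 58.8 and 60.8 CPM, rose by 0.21 ± 0.05 on the log2 scale, and lost its call without Dnm3os library 2 and by DESeq2. The main taurine carrier Slc6a6, among the most abundant carriers, was at 484 ± 16.2 and 472 ± 8.51 CPM (-0.04 ± 0.03). Slc38a1, a glutamine carrier of the surface, rose from 269 ± 2.66 to 298 ± 7.15 CPM (0.15 ± 0.03), a call lost without Dnm3os library 1. The one amino acid carrier that fell was Slc43a2, the uniporter LAT4, at 114.6 and 105.4 against 94.5 and 92.6 CPM (-0.23 ± 0.04; adjusted p = 0.000281 by edgeR).

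**Figure D3:**
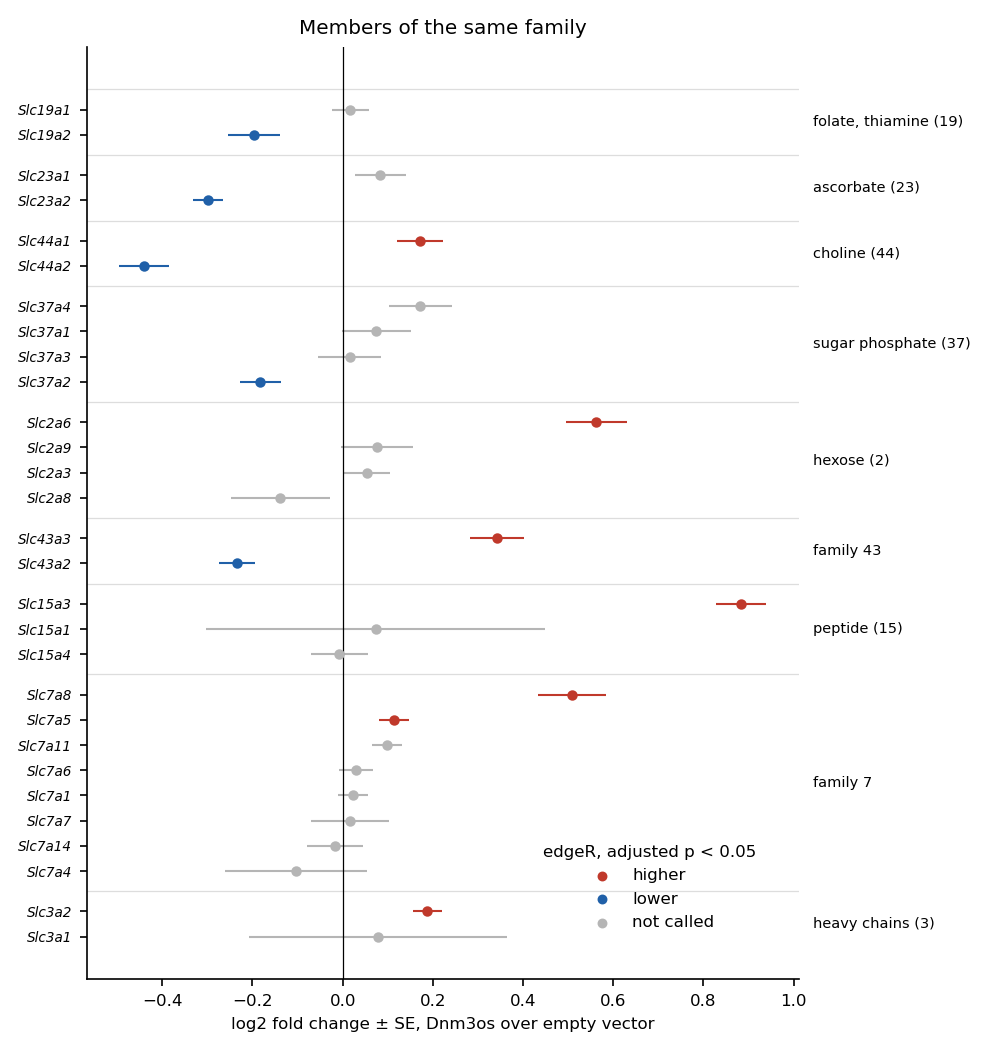
Log2 fold change of Dnm3os over empty vector with its SE for the tested carriers of 9 families, coloured by call (edgeR). Within family 15, Slc15a3 is at 0.88 while Slc15a4 is at -0.01, and in families 43 and 44 one member rose and the other fell.

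The members of family 43 went opposite ways. Slc43a3, a carrier of purine nucleobases, was at 25.7 and 25.4 CPM in the empty vector and 32.7 and 32.1 CPM in the Dnm3os libraries, and rose 1.27-fold (0.34 ± 0.06; adjusted p = 0.000253 by edgeR), whereas Slc43a2 fell. The other nucleoside carriers did not pass, among them the lysosomal exporter Slc29a3 at 12.96 ± 0.0766 and 12.49 ± 0.214 CPM.

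Among sugar and sugar phosphate carriers, 1 rose, 3 fell and 10 of the 14 tested did not pass (median 0.02), a called share of 28.6% against 12.3% of all genes tested. These genes were classed by family number, Slc5a12 among them, and the substrate of each was not checked. Slc2a6, the lysosomal glucose carrier GLUT6 of macrophages, was at 16.5 and 16.3 CPM in the empty vector and 24.6 and 23.9 CPM in the Dnm3os libraries. It rose 1.48-fold (16.4 ± 0.120 against 24.3 ± 0.439 CPM, log2 fold change 0.56 ± 0.07; adjusted p = 2.12e-06 by edgeR), and both Dnm3os values lay above both controls. The other family 2 carriers tested had log2 fold changes of 0.05 ± 0.05 (Slc2a3), 0.08 ± 0.08 (Slc2a9) and -0.14 ± 0.11 (Slc2a8), none of them called. The Slc2a6 promoter window, at chr2:27027949-27028248 (minus strand, GRCm38.p6), is shown because it holds a kappa B match, in capitals, that begins 101 bases before the start.
Slc2a6: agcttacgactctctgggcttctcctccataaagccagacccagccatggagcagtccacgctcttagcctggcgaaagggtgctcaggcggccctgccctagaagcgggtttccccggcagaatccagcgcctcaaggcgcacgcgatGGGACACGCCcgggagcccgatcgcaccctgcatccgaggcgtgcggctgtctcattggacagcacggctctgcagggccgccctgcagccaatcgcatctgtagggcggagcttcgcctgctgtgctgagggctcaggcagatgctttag

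A kappa B match was found in 20.7% of the 32851 promoter windows of the table and in 25.2% of the 234 windows of 171 carriers, an E-box in 7.15% and 13.7%, the antioxidant core in 12.4% and 21.4%, and the amino acid response element in 3.97% and 3.42%. The carriers were chosen as expressed in these cells, whereas the windows of the table were not, so the shares are not of like sets. Of the 23 called genes with a window, 10 had a kappa B match, and of these 3 rose and 7 fell. A gene was counted if any of its windows matched, so this count cannot be set beside the shares of windows. Among all 32 called genes, with or without a window, 20 rose and 12 fell. Of the called genes with an E-box 3 rose and 2 fell, with the antioxidant core 5 and 4, and with the amino acid response element 1 and 0. No link between a motif and a direction was tested. These are matches of letters and say nothing of binding.

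The falls in this class were of Slc45a3, Slc5a3 and Slc37a2. Slc45a3, a member of the sucrose carrier-like family, was at 12.2 and 12.8 CPM in the empty vector and 7.14 and 8.20 CPM in the Dnm3os libraries. It was 1.62-fold lower (-0.70 ± 0.09; adjusted p = 1.14e-05 by edgeR), and its groups lay well apart. Slc5a3, the sodium-coupled importer of the osmolyte myo-inositol, was at 89.9 and 84.4 against 70.5 and 74.3 CPM and fell by 0.27 ± 0.04 on the log2 scale (adjusted p = 9.50e-05 by edgeR). It shares 159 exon bases with Mrps6 on the same strand, at a log2 fold change of -0.01 ± 0.04. Slc37a2, a sugar phosphate exchanger of the endoplasmic reticulum in macrophages, fell from 66.2 ± 1.13 to 58.3 ± 2.86 CPM (-0.18 ± 0.04), a call lost without Dnm3os library 1 and by DESeq2. Without Dnm3os library 1, 2 sugar carriers were lower.

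**Figure D4:**
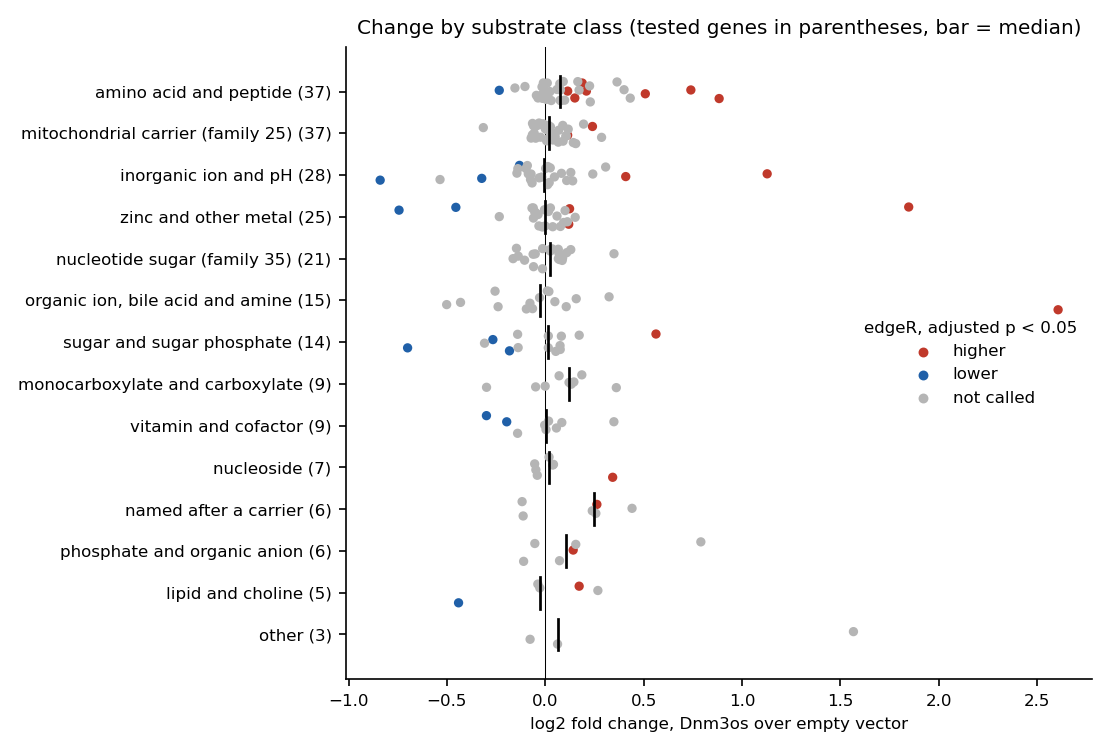
Log2 fold change of Dnm3os over empty vector for tested carriers by substrate class (number tested in parentheses); each point is a gene, coloured by call, and the black bar is the class median. Amino acid and peptide carriers have 7 red points and 1 blue, and the nucleotide sugar class, which holds the genes of family 35, has 0 of either.

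An anion exchanger and an ascorbate importer were among the abundant carriers that fell. Slc4a2, the chloride and bicarbonate exchanger AE2 that sets cell pH, was at 187.3 and 189.0 CPM in the empty vector and 148.2 and 152.5 CPM in the Dnm3os libraries, 1.25-fold lower (-0.32 ± 0.03; adjusted p = 1.02e-07 by edgeR). It shares 255 exon bases with Fastk on the opposite strand, which was higher (0.15 ± 0.05; adjusted p = 0.0401 by edgeR). Slc23a2, the sodium-coupled ascorbate importer, was at 190.6 and 201.9 against 159.9 and 159.0 CPM and fell by 0.30 ± 0.03 (adjusted p = 9.59e-07 by edgeR). Its paralog Slc23a1 was at 40.7 ± 3.33 and 43.2 ± 0.00940 CPM and did not pass. The thiamine carrier Slc19a2 fell from 33.4 ± 0.0428 to 29.1 ± 0.613 CPM (-0.20 ± 0.06), and was called neither by DESeq2 nor when any of the 4 libraries was dropped. So of 9 vitamin and cofactor carriers 2 fell (22.2%, against 5.75% of all genes tested), and 1 fell without each library in turn and by DESeq2.

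Of the 28 carriers of inorganic ions and pH, 2 rose, 3 fell and 23 did not pass (median -0.01), a called share of 17.9% against 12.3% of all genes tested. These counts rested on single libraries: without Dnm3os library 2, 0 rose and 1 fell, without Dnm3os library 1 1 rose and 1 fell, without empty vector library 1 1 rose and 2 fell, and without empty vector library 2 1 rose and 3 fell. DESeq2 called 0 higher and 1 lower. The sodium and proton exchanger Slc9a4 rose from 11.7 ± 0.997 to 15.4 ± 0.510 CPM (0.41 ± 0.08), a call lost without Dnm3os library 2 and by DESeq2. Slc9a9, an endosomal exchanger, had 14 and 15 against 25 and 29 counts (1.13 ± 0.35), and was no longer called when any of the 4 libraries was dropped. Slc12a4, a potassium and chloride cotransporter, fell from 113 ± 1.17 to 103 ± 0.424 CPM (-0.13 ± 0.03), a call lost without either Dnm3os library. The sulfate carrier Slc26a1, at 77, 50, 22 and 38 counts, was lower (-0.84 ± 0.26), a call that needed empty vector library 1 and both Dnm3os libraries. Slc26a1 shares 141 exon bases with Idua on the opposite strand. The cotransporter Slc12a2 (43.6 ± 0.0903 and 44.2 ± 1.43 CPM) did not pass.

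The heme carrier Slc48a1 (HRG1), which brings heme from digested red cells out of the phagolysosome, was at 77.8 and 77.7 CPM in the empty vector and 57.46 and 56.03 CPM in the Dnm3os libraries. It fell 1.37-fold (-0.45 ± 0.04; adjusted p = 2.93e-08 by edgeR). Its groups were tight and far apart, and it shares only 29 exon bases with Hdac7 on the opposite strand. Of the 25 zinc and other metal carriers 3 rose and 2 fell and 20 did not pass (median -0.00), a called share of 20% against 12.3% of all genes tested. Without Dnm3os library 1, 0 rose and 2 fell, without Dnm3os library 2, 0 rose and 1 fell, without empty vector library 1, 2 rose and 1 fell, and without empty vector library 2, 1 rose and 1 fell, while DESeq2 called 0 higher and 1 lower.

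The zinc importer Slc39a4, at 10, 3, 23 and 17 counts, rose (1.85 ± 0.50), a call that needed empty vector library 2 and both Dnm3os libraries. It could not have met the count threshold without the Dnm3os libraries, where it is high. Its counts are therefore a description and its call supports nothing, though it is counted among the metal carriers that rose. Slc39a8, an importer of zinc and manganese, fell at 80, 71, 43 and 33 counts (-0.74 ± 0.23), a call lost without either empty vector library or Dnm3os library 2. The Golgi zinc carrier Slc30a5 rose from 142 ± 1.87 to 154 ± 3.24 CPM (0.12 ± 0.03), and the importer Slc39a6 from 83.4 ± 1.02 to 90.8 ± 0.267 CPM (0.12 ± 0.04), and each lost its call without Dnm3os library 1 or 2, Slc30a5 also without empty vector library 2 and Slc39a6 also without empty vector library 1. The zinc exporter Slc30a1 and the importer Slc39a1, both widely expressed, had log2 fold changes of 0.03 ± 0.07 and -0.02 ± 0.03. Of 3 tested zinc-buffering genes, Mt1 fell (-0.14 ± 0.03), a call lost without Dnm3os library 2.

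The choline carriers also diverged. Slc44a2 was at 44.6 and 47.7 CPM in the empty vector and 33.4 and 34.6 CPM in the Dnm3os libraries, 1.36-fold lower (-0.44 ± 0.05; adjusted p = 3.85e-06 by edgeR). Slc44a1 rose from 39.4 ± 1.02 to 44.4 ± 0.0753 CPM (0.17 ± 0.05), a call that needed empty vector library 1 and both Dnm3os libraries. The fatty acid carriers Slc27a1, Slc27a3 and Slc27a4 did not pass.

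Of 37 tested mitochondrial carriers of family 25, which move metabolites across the inner membrane, 2 rose and 0 fell, with 5.41% higher where 6.51% of all genes tested were (median 0.02; at an unadjusted p under 0.05, 6 were higher and 1 lower by edgeR). DESeq2 called 1 and 0, limma-voom 2 and 0, and each fit with a library left out called 1 higher. The phosphate carrier Slc25a3 was at 427.5 and 421.8 against 466.0 and 452.9 CPM (0.11 ± 0.03), a call lost on dropping empty vector library 2 or Dnm3os library 1. The pyrimidine nucleotide carrier Slc25a33 rose from 23.96 ± 1.78 to 28.2 ± 1.84 CPM (0.24 ± 0.07), a call lost without empty vector library 1 or Dnm3os library 2. Slc25a5 was at 746 ± 1.66 and 781 ± 6.21 CPM and did not pass (0.07 ± 0.03).

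The 21 tested genes of family 35 were classed together, by family number, as nucleotide sugar carriers, and the substrate of each was not checked. Of these genes 0 were called in either direction by edgeR, where 12.3% of all genes tested were (median 0.03, with 0 higher and 2 lower at an unadjusted p under 0.05). Neither DESeq2 nor limma-voom called any of them (0 and 0). The 9 tested genes of family 16, classed by family as monocarboxylate carriers, also had 0 called in either direction by edgeR, beside the same 12.3% of all genes. Their median was 0.12, with 3 higher and 0 lower at an unadjusted p under 0.05. DESeq2 and limma-voom called 0, and 1 was higher with no filter on low counts or with a replicate block. The lactate and pyruvate carrier Slc16a1 was at 267 ± 5.16 and 280 ± 3.88 CPM (0.07 ± 0.03). The phosphate importer Slc20a1 rose from 157 ± 3.37 to 173 ± 6.67 CPM (0.14 ± 0.03), a call lost on dropping empty vector library 1 or Dnm3os library 1. Slc22a17, a receptor-like family 22 member, is counted among the 20 called higher, but it met the count threshold only through the Dnm3os libraries, where it is high, so its counts of 4, 2, 19 and 13 are a description and its call supports nothing. Slc22a28 and Slc22a29 had the same counts in 3 of 4 libraries, so reads of these paralogs are uncertain. Without empty vector library 1, 2 organic ion carriers were higher and 1 lower. Slc7a6os, named for its place opposite Slc7a6 and not itself a carrier, rose from 27.5 ± 0.396 to 32.96 ± 0.0456 CPM (0.26 ± 0.06), a call lost by DESeq2. The other genes named after a carrier (Slc2a4rg-ps, Slc36a1os, Slc4a1ap, Slc9a3r1 and Slc9a3r2) did not pass.

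Genes of the amino acid response, which works through the transcription factor Atf4 when amino acids run short, were examined beside the amino acid carriers. The list also holds Atf4 itself and the sensor kinase Eif2ak4. Of the 29 tested that are not carriers, 13 rose and 1 fell, while 15 did not pass, a higher share of 44.8% where 6.51% of all genes rose. The median log2 fold change was 0.17, and the groups did not overlap for 25 (86.2%), where 51.2% of all genes tested did not overlap. Most differences were small, and their number depended on single libraries: 22 rose without empty vector library 2, 9 without empty vector library 1 and 8 without either Dnm3os library, and 10 by DESeq2.

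Shmt2, a mitochondrial serine and glycine enzyme, was at 427.4 and 434.5 CPM in the empty vector and 484.1 and 506.7 CPM in the Dnm3os libraries (0.20 ± 0.03; adjusted p = 5.34e-05 by edgeR). Ddit3, the stress transcription factor CHOP, was at 18.7 and 22.8 against 29.9 and 28.8 CPM (0.50 ± 0.08; adjusted p = 0.000313 by edgeR), and Phgdh, the first enzyme of serine synthesis, at 306.8 and 321.9 against 352.7 and 358.6 CPM (0.18 ± 0.03; adjusted p = 0.000401 by edgeR). None of these had overlapping groups, but they were named for the smallest adjusted p of the list, so this is no further support. Atf4 itself rose from 328 ± 23.6 to 368 ± 4.74 CPM (0.17 ± 0.04), a call that needed empty vector library 1 and both Dnm3os libraries. Asns, the asparagine synthetase, was at 250 ± 17.2 and 272 ± 4.76 CPM and did not pass. Eif2ak4, the kinase that senses uncharged tRNA, was the gene that fell (-0.18 ± 0.05), a call lost without empty vector library 1 or Dnm3os library 2.

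**Figure D5:**
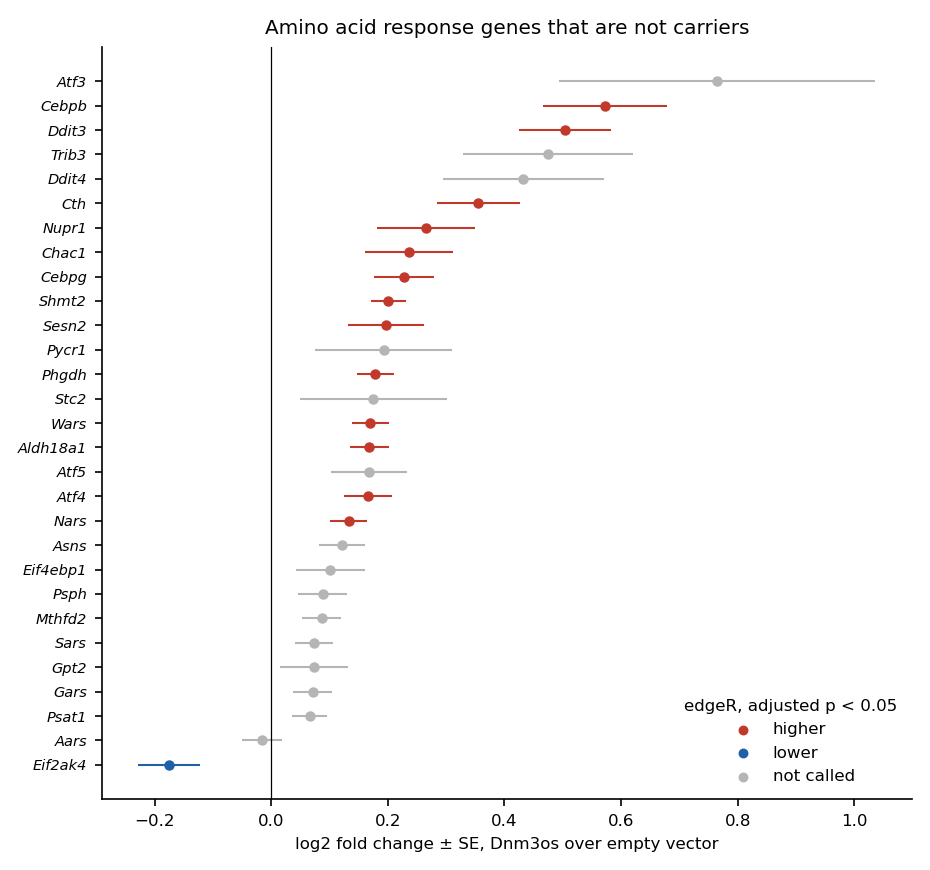
Log2 fold change of Dnm3os over empty vector with its SE for the 29 tested amino acid response genes that are not carriers, coloured by call (edgeR). Of these, 13 are called higher and 1, Eif2ak4, lower, and most lie between 0 and 0.6 on the horizontal axis.

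Genes that sense amino acids at the lysosome and pass the signal to the kinase mTOR were called about as often as other genes, 12% against 12.3%. Of 25 tested, 0 rose and 3 fell by edgeR, 12% lower where 5.75% of all genes tested were (2 higher and 5 lower at an unadjusted p under 0.05). The fit without empty vector library 1 gave 6 lower, and the fit without empty vector library 2 gave 1 higher, while DESeq2 called 0 higher and 2 lower and limma-voom 0 and 3. Castor1, an arginine sensor, fell from 4.88 ± 0.737 to 2.48 ± 0.0456 CPM (log2 fold change -0.97 ± 0.15; adjusted p = 9.06e-05 by edgeR), and Rptor, a subunit of mTOR complex 1, from 141 ± 5.48 to 124.5 ± 2.36 CPM (-0.18 ± 0.03). Mitf, a transcription factor of lysosomal genes, fell by 0.18 ± 0.04 on the log2 scale, a call lost without Dnm3os library 1 and by DESeq2.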

How the data were processed

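Raw read counts and normalized counts of RefSeq transcripts came from 4 libraries of RAW 264.7 cells, 2 per group. Per the submitters' processing notes, TopHat, Bowtie2, DESeq2 and the build mm9 were used; which program counted reads, with which annotation and strand setting, is not given in the sources used here. The deposited raw column holds whole-number counts. The authors' normalized column is a scaled signal, in which each library's raw counts are multiplied by 1 constant, and was not tested.

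Transcripts were named from RefSeq and GENCODE tables (109 of 35786 stayed unnamed and were kept under their IDs), each gene was represented by its transcript of highest mean count, and 45S ribosomal RNA was left out. Counts were filtered with filterByExpr, scaled with TMM and tested with edgeR 4.0.16 in R 4.3.3 (glmQLFit with robust set, glmQLFTest), adjusted over 13172 genes at a threshold of 0.05. The SE was taken as the size of the log2 fold change divided by the root of its F statistic. The scripts were tested on simulated data. Alternatives used limma 3.58.1 and DESeq2 1.42.0, other scalings and filters, a replicate block, isoforms summed, and each library left out. Where a library was dropped, the single one left in its group was assumed to vary as the other group does.

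The genes, their classes, the lists and the tests were chosen with earlier results of these data known. Named were the 10 largest rises and 10 largest falls among called carriers with a mean of at least 1 CPM, the 2 called genes with the smallest adjusted p per class, 16 carriers of known role, the 5 most abundant, those at the count threshold, and up to 3 called genes per list. Of the genes this rule names, 1 is not reported here. Slc9a9, Slc12a4, Slc38a1, Slc39a4, Slc39a6 and the relatives named for contrast were added after their values were seen. Exon overlaps come from GENCODE and promoter windows from RefSeq, both on GRCm38; coordinates are given for those windows only.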

Additional observations from a re-analysis of the deposited data

How the results depend on the processing

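Of 20 carriers called higher and 12 lower by edgeR, DESeq2 called 8 and 7. Leaving out each library in turn gave 11 to 19 higher and 8 to 10 lower, with the fewest without Dnm3os library 1 or 2. Other scalings, filters, limma-voom and summed isoforms gave 17 to 23 higher and 10 to 12 lower, and no scaling moved the median of all genes by more than 0.004 on the log2 scale. The libraries share replicate numbers, but same-numbered libraries did not deviate together (correlation of deviations -0.202 over 9979 genes), so the numbers were not taken as pairs: with a replicate block, 22 were higher and 12 lower. With crossed pairs, an alternative chosen after the data were seen, 26 were higher and 12 lower. No called carrier reversed its direction under these 14 alternatives. DESeq2 also called 15 of the 32, and limma-voom 28. With 2 libraries a group, counts of about 10 per library limit what can be seen for the 25 carriers under 1 CPM.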

Other observations

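Membrane carriers whose symbols do not start with Slc and a family number also differed. Of 32 tested, 4 rose and 3 fell, while 25 did not pass, a called share of 21.9% where 12.3% of all genes were called. Ank, which exports pyrophosphate and citrate, was the most abundant of those called, at 899.5 and 912.6 CPM in the empty vector and 714.2 and 706.1 CPM in the Dnm3os libraries, and fell by 0.35 ± 0.03 on the log2 scale (adjusted p = 8.97e-10 by edgeR). The phosphate exporter Xpr1 fell from 107 ± 3.03 to 90.6 ± 2.26 CPM (-0.24 ± 0.04), and the lysosomal cysteine carrier Mfsd12 from 96.0 ± 3.74 to 79.3 ± 3.59 CPM (-0.27 ± 0.04). Sidt2, a lysosomal membrane protein linked to RNA uptake, was at 19.56 and 17.04 against 26.7 and 27.1 CPM and rose by 0.55 ± 0.07 (adjusted p = 5.88e-06 by edgeR). The rises of the pyruvate carrier subunit Mpc1 (0.22 ± 0.07) and of Letmd1 (0.21 ± 0.06) were lost with each library left out, and that of the lipid carrier Mfsd2a (0.58 ± 0.16) without Dnm3os library 2, so that 1 was higher without that library and 2 without empty vector library 2. DESeq2 and summed isoforms each gave 1 higher, Sidt2, and Mfsd2a also lost its call by limma-voom.

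Of 16 tested chaperones, partners and regulators of carriers, 2 rose and 0 fell by edgeR, a called share of 12.5% against 12.3% of all genes tested (2 higher and 1 lower at an unadjusted p under 0.05, and 0 lower by DESeq2 and limma-voom). Sgk1, a kinase that regulates many carriers and channels, was at 4.44 and 4.50 CPM against 6.66 and 7.29 CPM and rose by 0.64 ± 0.12 (adjusted p = 0.000432 by edgeR). Cnih4 rose by 0.17 ± 0.05, a call lost without empty vector library 1 or Dnm3os library 1, where 1 was higher. Bsg, the partner of monocarboxylate carriers, was at a log2 fold change of 0.02 and did not pass.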
